A study of Canis lupus familiaris with 8 samples.

Results

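Ion channel subunits were measured as messenger RNA in the anterior leaflet of the mitral valve of 8 dogs. The genes were chosen by their symbols alone: those beginning with KCN (potassium channels), CACN (voltage-gated calcium channels), SCN and a digit (voltage-gated sodium channels), CLCN (chloride channels and exchangers) or TRP with A, C, M or V and a digit (transient receptor potential channels). This gave 71 probe sets of 40 genes, out of 6540 genes that the array names by 1 symbol. Each gene is represented by its brightest probe set, the one with the highest mean log2 signal over all 8 dogs. A probe set is a group of short probes on an Affymetrix array, most often designed to read 1 transcript. By family the genes were 21 potassium, 8 calcium, 4 sodium and 5 chloride channel genes, and 2 with TRP symbols. One of these last, TRPC4AP, encodes a protein that binds a TRP channel and is no channel itself.

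The affected group was 4 dogs with degenerative mitral valve disease, in which the leaflets thicken and lose their shape: Miniature poodles for affected 2 and affected 4, a Lhasa apso for affected 1 and a Dachshund for affected 3. The control group was 4 beagle crosses. No age, sex or treatment is given in the labels, and every leaflet had been frozen in liquid nitrogen. Since no breed occurs in both groups, breed and disease cannot be told apart. Each dog gave 1 array, so the number of arrays limits the precision.

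Ion channels are membrane proteins that open a path for ions, many of them mainly for 1 kind. Potassium channels mostly hold a cell near its resting voltage or end an action potential, voltage-gated sodium and calcium channels start one and let in the calcium that drives contraction, and chloride proteins of the CLCN family serve the membrane or acidify endosomes and lysosomes. A channel is usually a pore-forming subunit with smaller accessory subunits that set its gating and its traffic to the membrane. The mitral leaflet consists mainly of interstitial cells and matrix under an endothelium, with nerve fibres and, near its base on the atrial side, heart muscle, so both excitable and non-excitable cells can contribute channel transcripts.

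All signals below are log2 of the array signal, with values under a floor of 5.10 set to that floor. As deposited, all arrays already had a trimmed mean signal of 500.1. The leaflet's own matrix genes were bright: the mean log2 signal of 8 fibroblast and interstitial cell markers was 13.47 to 13.80 in affected dogs and 11.64 to 14.02 in controls. Control 2 stood apart, with the lowest value of that list, the lowest of 14 macrophage markers (6.51, against 8.40 to 9.58 in the other controls) and the highest of 14 heart muscle markers (14.01). Affected 3 had the lowest heart muscle value, 10.27. Heart muscle markers ranged from 10.27 to 13.45 in affected dogs and from 11.34 to 14.01 in controls, and none of the 14 was at the floor in any dog. The mean was lower in affected dogs for 13 of the 14, but the groups overlapped for each. The smallest unadjusted p of the 14 was 0.098 in limma, so no loss of heart muscle RNA is shown. In whole tissue, fewer cells of a type and less RNA per cell cannot be told apart.

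A good part of the channel genes was too dim to be tested. Testing required a signal above the array's own 40th percentile on 4 or more of the 8 arrays, and 24 of the 40 genes passed, 15 of 21 for potassium, 3 of 8 for calcium, 1 of 4 for sodium, 3 of 5 for chloride and both with TRP symbols. That is 60.0% of the channel genes, beside 61.7% of all probe sets. Among the 16 that did not pass, the neuronal potassium channels KCNB2 and KCNQ3 and the skeletal muscle calcium channel CACNA1S were at the floor in all 8 dogs. The mean log2 signal of the 16 lay between 5.10 and 6.69, and the groups overlapped for each of them. KCNMA1, the pore of the large-conductance calcium-activated potassium channel, was 5.54, 5.10, 5.65 and 5.43 in affected dogs 1 to 4, against 5.10, 5.10, 5.58 and 5.39 in controls 1 to 4, hence at or near the floor on every array. KCNJ2, an inward rectifier that sets the resting voltage of heart muscle, was likewise dim, from 5.10 to 6.19 in affected dogs and from 5.10 to 6.30 in controls. No level can be compared between genes here, because probe sets differ in how brightly they bind.

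The comparison of affected with control leaflets gave no channel gene past the threshold. In limma, 0 of the 24 tested genes had an adjusted p under 0.05, where 0% of all 14705 tested probe sets did, and the smallest adjusted p among the 24 was 0.658. At an unadjusted p under 0.05 the count was also 0, whereas among all tested probe sets 4.02% reached it with a higher and 3.81% with a lower mean in affected dogs. The affected and control dogs overlapped for every one of the 24 genes, while 2.35% of all tested probe sets were higher and 2.31% lower without overlap. Of the 24, 10 had a higher and 14 a lower mean in affected dogs. Their median log2 difference, affected minus control, was -0.17, beside 0.0065 over all tested probe sets.

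**Figure D1:**
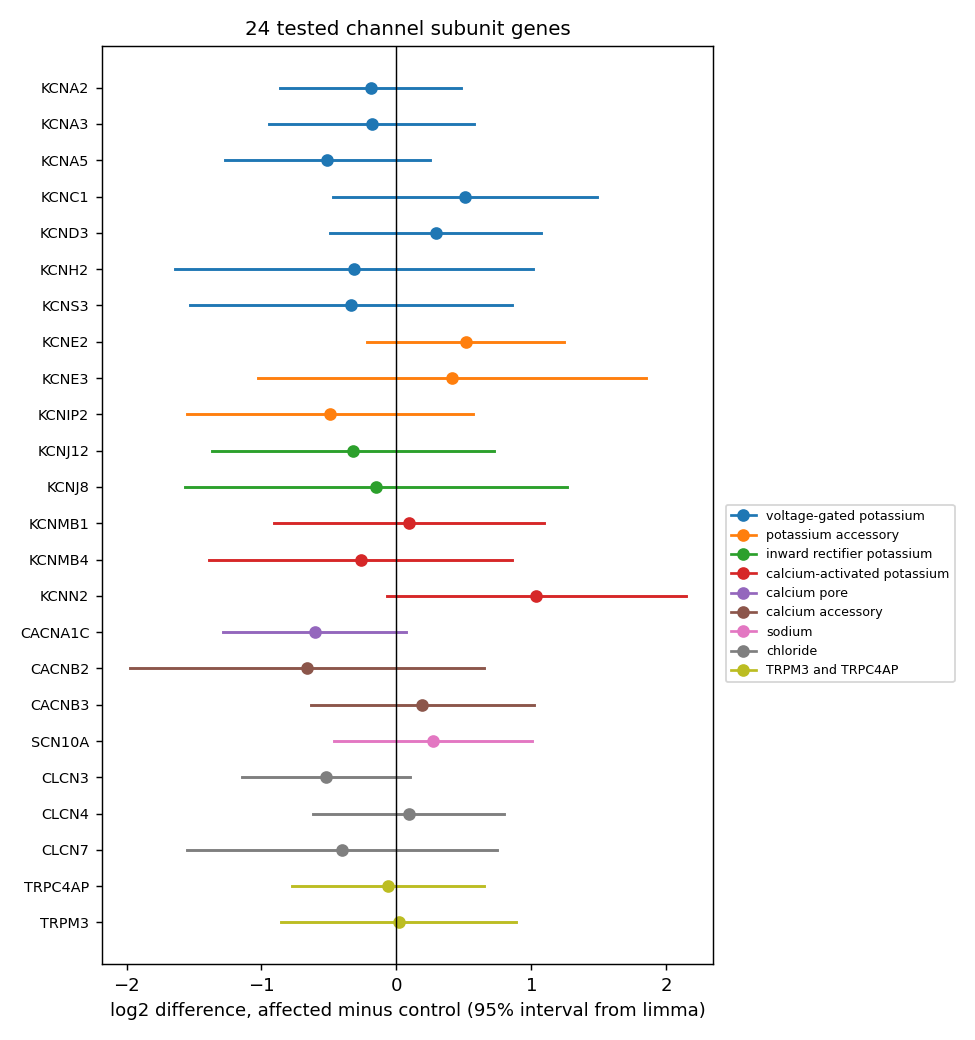
Log2 difference (affected minus control, x axis) of each of the 24 tested channel subunit genes, coloured by family, with its 95% interval from limma (4 dogs per group). Every interval holds 0, and KCNN2 has the highest difference at 1.04.

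These intervals are wide, so the data do not show that the groups are alike. The 95% intervals of all 24 genes held 0, but 19 of them also reached beyond a log2 difference of 1 in size. For 20 of the 24 the difference between the group means was smaller than the pooled standard deviation (SD) among dogs of a group, which ran from 0.38 to 1.11.

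Among the pores of voltage-gated potassium channels, the 7 tested genes had differences from -0.51 to 0.51, 2 higher and 5 lower in affected dogs. KCNA5 carries the ultrarapid delayed rectifier current of atrial muscle. It was 9.70, 9.06, 9.77 and 8.62 in affected dogs 1 to 4, against 10.15, 10.24, 9.61 and 9.20 in controls 1 to 4. Affected 2 and affected 4 lay below all controls and the others within them, and the difference was -0.51 ± 0.34 (log2, standard error; adjusted p = 0.717 in limma). A dimmer tested probe set of KCNA5 had the same sign, at -0.79 ± 0.43, and its remaining probe set was at the floor in every dog. With the signals of the tested probe sets averaged, KCNA5 differed by -0.65 ± 0.27 (unadjusted p = 0.0341 in limma, adjusted p = 0.529).

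KCNH2, the hERG channel whose current repolarises heart muscle, was 9.50, 10.51, 8.42 and 8.67 in affected dogs 1 to 4, against 9.07, 11.18, 8.55 and 9.56 in controls 1 to 4. Its spread within each group was larger than the difference between them, which was -0.31 ± 0.60, and without control 2 the difference was 0.22. The other probe sets of KCNH2 were too dim to be tested, so its values rest on 1 probe set. The brightest of those others read 8.15, 6.81, 5.96 and 6.66 in affected dogs 1 to 4. In controls 1 to 4 it read 5.38, 6.53, 6.57 and 5.91, a difference of 0.80. KCND3, a pore of the transient outward current, differed by 0.29 ± 0.35, with affected dogs from 6.45 to 7.25 and controls from 6.10 to 7.07. KCNC1, a channel of fast-firing neurons, was 7.62, 7.72, 6.63 and 5.94 in affected dogs 1 to 4, against 6.02, 6.51, 6.88 and 6.47 in controls 1 to 4, a difference of 0.51 ± 0.44. In KCNC1 affected 1 and affected 2 lay above all controls and affected 4 below all of them.

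The other 3 voltage-gated genes showed no separation either. KCNA2, a neuronal channel, and KCNA3, a channel best known from lymphocytes and macrophages, differed by -0.19 ± 0.30 and -0.18 ± 0.34. KCNA3 was between 7.16 and 8.34 in affected dogs and between 7.39 and 8.51 in controls. Of the T cell markers, CD3E differed by 0.54 ± 0.33 and CD3D by -0.022 ± 0.29, with overlapping groups for both. All 14 tested macrophage markers had a higher mean in affected dogs. The mean of that macrophage list was 9.76 to 11.03 in affected dogs and 6.51 to 9.58 in controls, with 5 of the 14 at the floor in at least 1 dog, and its part in the channel values was not tested. KCNS3, a silent subunit that modifies KCNB channels, differed by -0.34 ± 0.54 and was at the floor in affected 4 alone, with the remaining 7 dogs between 6.97 and 7.92.

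**Figure D2:**
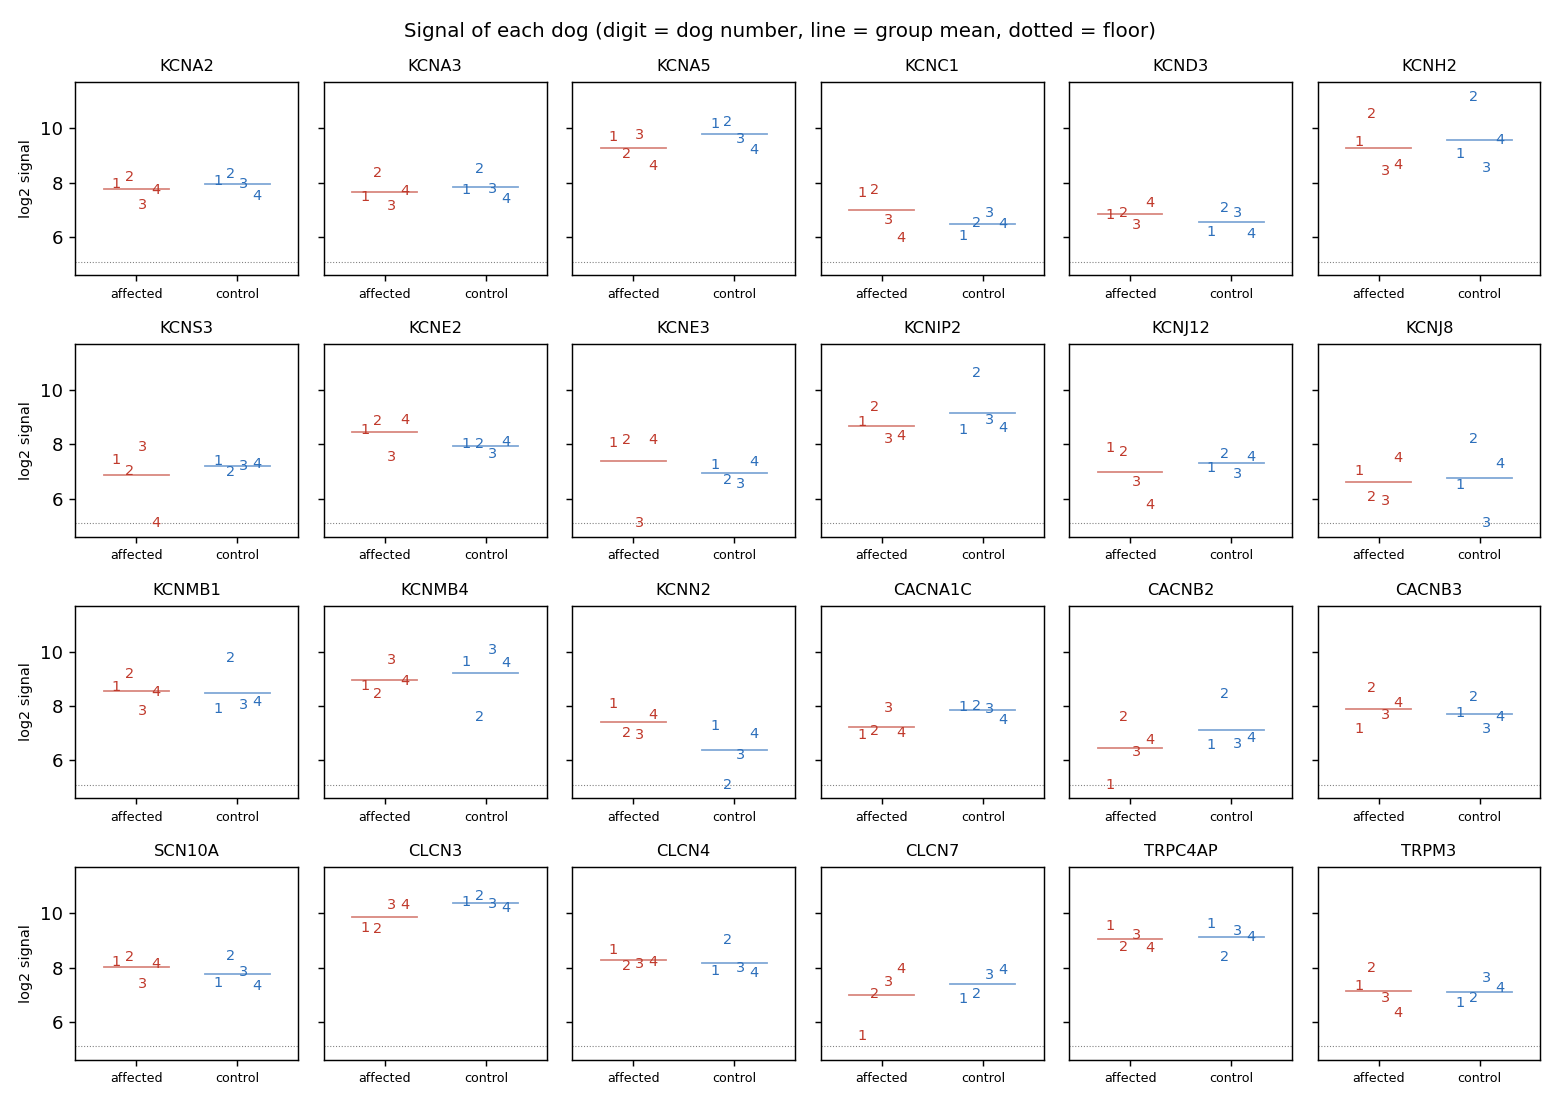
Log2 signal (y axis) of each of the 24 tested genes in affected and control dogs; each digit is the number of 1 dog, lines are group means and the dotted line is the floor at 5.10. The groups overlap in every panel, and the digit 2 of the controls is the highest value of the panel for 12 genes.

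Of the accessory subunits of voltage-gated potassium channels, 2 had a higher and 1 a lower mean in affected dogs. KCNE2, a small partner of KCNH2 and KCNQ1, was 8.52, 8.85, 7.53 and 8.91 in affected dogs 1 to 4, against 8.03, 8.0, 7.65 and 8.08 in controls 1 to 4. Affected dogs 1, 2 and 4 lay above all controls and affected 3 below all of them, with a difference of 0.51 ± 0.33 (adjusted p = 0.711 in limma). KCNE3, a related subunit that holds KCNQ1 open in epithelia, showed the same arrangement. It was 8.07, 8.16, 5.10 and 8.18 in affected dogs 1 to 4, against 7.25, 6.70, 6.55 and 7.34 in controls 1 to 4, so affected 3 was at the floor and the other 3 affected dogs lay above all controls. Its difference of 0.41 ± 0.65 was the least precise of all. Without affected 3, KCNE3 differed by 1.17 ± 0.30 (unadjusted p = 0.00360 in limma, adjusted p = 0.234) and KCNE2 by 0.82 ± 0.25 (unadjusted p = 0.00943, adjusted p = 0.276). For both genes this leaves out the only affected dog that was not above the controls, so the groups are bound to be apart. In that fit 12.5% of all tested probe sets had an unadjusted p under 0.05 and 13% had groups apart.

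A second probe set of KCNE3, dimmer on average, did not have affected 3 at the floor. It read 8.10, 7.63, 7.20 and 7.82 in affected dogs 1 to 4, against 6.82, 7.04, 5.66 and 6.42 in controls 1 to 4. All 4 affected dogs lay above all 4 controls, and the difference was 1.20 ± 0.37 (unadjusted p = 0.00825 in limma, adjusted p = 0.503). This was the only one of 35 tested probe sets of these genes with an unadjusted p under 0.05 or with groups apart, and it was singled out after its values were seen. Among all tested probe sets 7.83% had such a p and 4.66% had groups apart, so 1 of 35 is not above those shares. For KCNE2 the other tested probe set went the opposite way, at -0.40 ± 0.38, and of its 4 probe sets too dim to be tested 1 was higher in all affected dogs (6.28 to 7.19, against 5.10 to 5.60 in controls). No direction can therefore be given for KCNE2: with its tested probe sets averaged the difference was 0.056, and that of KCNE3 was 0.81.

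**Figure D3:**
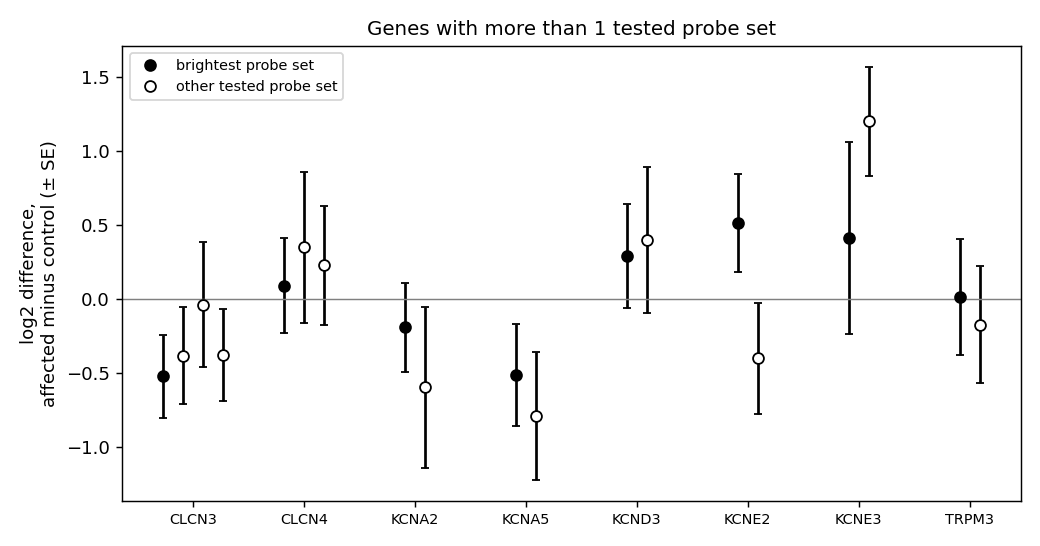
Log2 difference (affected minus control, y axis) with its standard error from limma for each tested probe set of the 8 genes that had more than 1; filled points are the brightest probe set and open points the others. The probe sets of KCNE2 and TRPM3 differ in sign, and the second probe set of KCNE3 stands at 1.20.

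KCNIP2, a calcium-binding partner of KCND channels, was 8.83, 9.39, 8.18 and 8.31 in affected dogs 1 to 4, against 8.53, 10.64, 8.91 and 8.62 in controls 1 to 4. Control 2 was highest, and the difference of -0.49 ± 0.48 became -0.0052 without that dog. Of the inward rectifiers, KCNJ8, a pore of ATP-sensitive potassium channels in vessels, differed by -0.15 ± 0.64 and KCNJ12, a relative of KCNJ2, by -0.32 ± 0.47. KCNJ8 spread widest among the controls, from 5.10 in control 3 to 8.18 in control 2, and lay between 5.91 and 7.49 in affected dogs.

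KCNN2, the pore of a small-conductance calcium-activated potassium channel found in nerve and atrial muscle, had the highest difference of all 24 genes. It was 8.08, 7.0, 6.92 and 7.68 in affected dogs 1 to 4, against 7.26, 5.10, 6.20 and 6.98 in controls 1 to 4. Affected 1 and affected 4 lay above all controls, the others overlapped them, and control 2 was almost at the floor. The difference of 1.04 ± 0.50 (95% interval -0.07 to 2.14) corresponds to 2.05 times the control signal, with an unadjusted p of 0.0630 and an adjusted p of 0.658 in limma. It was 0.61 without control 2, so its size rests in part on that dog. With the floor raised to the 40th percentile it was 0.54, and with no floor it stayed at 1.04.

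Both accessory subunits of the large-conductance channel had differences smaller than their errors. KCNMB1, the subunit that raises calcium sensitivity in smooth muscle, differed by 0.094 ± 0.45, with affected dogs from 7.81 to 9.18 and controls from 7.88 to 9.79. KCNMB4, a subunit best known from neurons, was 8.75, 8.46, 9.68 and 8.92 in affected dogs 1 to 4, against 9.64, 7.60, 10.06 and 9.57 in controls 1 to 4. Control 2 was lowest for KCNMB4, the gene's difference was -0.26 ± 0.51, and without that dog it was -0.80 ± 0.32 (unadjusted p = 0.0295 in limma, adjusted p = 0.540). In the fit without control 2, 8.56% of all tested probe sets had an unadjusted p under 0.05.

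Of the calcium channel genes, CACNA1C and CACNB2 form and traffic the L-type channel that triggers contraction in heart and smooth muscle. CACNA1C was 6.92, 7.07, 7.94 and 6.99 in affected dogs 1 to 4, against 7.97, 8.01, 7.87 and 7.49 in controls 1 to 4. Affected dogs 1, 2 and 4 lay below all controls and affected 3 among them, with a difference of -0.61 ± 0.30 (95% interval -1.28 to 0.07, unadjusted p = 0.0741 in limma, adjusted p = 0.665). Without affected 3 the difference was -0.84 ± 0.27 (unadjusted p = 0.0118 in limma, adjusted p = 0.289). The groups were then apart, which follows from leaving out the only affected dog that overlapped the controls. In that fit 12.5% of all tested probe sets had an unadjusted p under 0.05 and 13% had groups apart. The 3 other probe sets of CACNA1C were at or near the floor and were not tested, so its value rests on 1 probe set. CACNB2 was at the floor in affected 1 and highest in control 2 at 8.45, and its difference of -0.66 ± 0.59 became -0.22 without control 2. CACNB3, another beta subunit, differed by 0.19 ± 0.37. The remaining 5 calcium genes, among them the T-type pore CACNA1H, were too dim to be tested.

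SCN10A, a sodium channel of sensory nerves, was the only sodium channel gene tested. It lay between 7.40 and 8.37 in affected dogs and between 7.33 and 8.43 in controls, a difference of 0.27 ± 0.33. SCN2A, SCN8A and the accessory subunit SCN2B were too dim to be tested.

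Of the chloride genes, CLCN3 encodes a chloride-proton exchanger of endosomes. It was 9.46, 9.43, 10.32 and 10.31 in affected dogs 1 to 4, against 10.42, 10.64, 10.34 and 10.19 in controls 1 to 4. Affected 1 and affected 2 were low, whereas affected 3 and affected 4 sat within the control range, and the difference was -0.52 ± 0.28 (95% interval -1.14 to 0.10, unadjusted p = 0.0929 in limma, adjusted p = 0.672). Its 3 other probe sets had the same sign at -0.38 ± 0.33, -0.04 ± 0.42 and -0.38 ± 0.31. CLCN7, the lysosomal exchanger, differed by -0.40 ± 0.52. Affected 1 read 5.47 where the other dogs lay between 6.85 and 7.94, and without that dog the difference was 0.098. CLCN4, a further endosomal exchanger, differed by 0.091 ± 0.32 over all dogs and by 0.37 without control 2 (unadjusted p = 0.190 in limma). All affected dogs then lay above the remaining controls, since control 2 was the only control that overlapped them. In that fit 8.92% of all tested probe sets had groups apart. TRPM3, a cation channel that responds to heat and steroids in sensory nerves, and TRPC4AP differed by 0.016 ± 0.39 and -0.063 ± 0.32.

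Single dogs set several of these values. Affected 3 held the lowest value of 7 of the 24 genes, and control 2 the highest of 12 and the lowest of 3. In the plot of differences with each dog left out, leaving out control 2 gave the lowest or highest difference of 12 genes, affected 2 of 10, affected 4 of 8 and affected 3 of 6. The sign held but the size moved for KCNC1 (0.26 to 0.85), KCND3 (0.14 to 0.46) and SCN10A (0.13 to 0.50). Without affected 3, 4 genes had an unadjusted p under 0.05 (CACNA1C, CLCN3, KCNE2 and KCNE3) and 3 of them had groups apart. In the same fit 12.5% of all tested probe sets had such a p and 13% had groups apart, so the channel counts of 4 and 3 of 24 lie near those shares. Without any other single dog at most 1 channel gene had such a p. The smallest adjusted p of any of these genes was then 0.234.

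**Figure D4:**
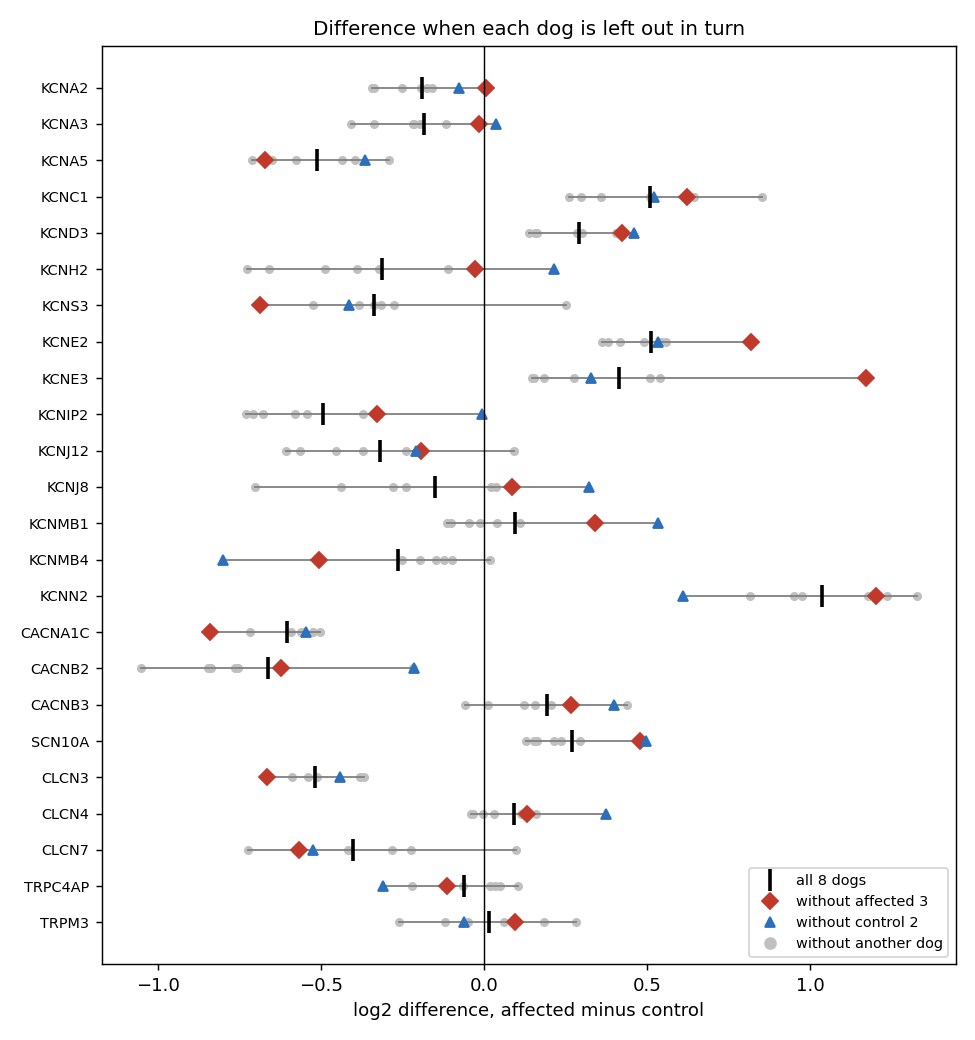
Log2 difference (affected minus control, x axis) of each tested gene with all 8 dogs (black bar), without affected 3 (red diamond), without control 2 (blue triangle) and without each other dog (grey points). KCNE3 stands at 1.17 without affected 3 and KCNMB4 at -0.80 without control 2.

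Since several of these channels belong to heart muscle, each tested gene was set over the 8 dogs against the mean log2 signal of the 14 heart muscle markers, a list that holds no channel gene. KCNH2 followed the markers most closely, with Pearson's r = 0.911 (exact permutation p = 0.00144, adjusted p = 0.0345 over 24 genes) and Spearman's rho = 0.976 (exact permutation p = 0.000397, adjusted p = 0.00952). The order of the 4 affected dogs by KCNH2 was that of their heart muscle markers, and the same held for the 4 controls, which was so for no other of the 24 genes. Without control 2 and affected 3, the dogs farthest from the median of the markers, r was 0.932 (exact permutation p = 0.00833, adjusted p = 0.2), so over 6 dogs the relation kept its size and no longer passed. With the marker mean as a covariate in limma, the group difference of KCNH2 was 0.069. These relations are those of the only tested probe set of KCNH2, and its dimmer ones were not set against the markers.

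KCNMB1 had r = 0.830 (exact permutation p = 0.0100, adjusted p = 0.120) and rho = 0.905 (exact permutation p = 0.00456, adjusted p = 0.0365), and r was 0.689 without the same 2 dogs. KCNMB4 ran the other way, with r = -0.787 (exact permutation p = 0.0202, adjusted p = 0.139) and rho = -0.905 (exact permutation p = 0.00456, adjusted p = 0.0365), and r was -0.722 without them. KCNIP2, KCNA3 and KCNA2 had r of 0.759, 0.760 and 0.737 (exact permutation p = 0.0289, 0.0287 and 0.0374, adjusted p = 0.139, 0.139 and 0.150; rho = 0.714, 0.524 and 0.571, exact permutation p = 0.0576, 0.197 and 0.151). Without the 2 extreme dogs r was 0.448, 0.336 and 0.113 for those 3 genes. Leaving these dogs out also narrows the range of the markers, so how far the 3 relations rest on them cannot be told. CACNA1C and KCNA5, whose currents are prominent in heart muscle, had r of only -0.259 and -0.0064 (exact permutation p = 0.531 and 0.988; rho = -0.071 and -0.048, exact permutation p = 0.882 and 0.935).

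In all, 6 of 24 genes had an exact permutation p under 0.05 for Pearson's r with the heart muscle markers, beside 12.8% of all tested probe sets. After adjustment 1 gene passed by Pearson's r (KCNH2) and 3 by Spearman's rho (KCNH2, KCNMB1 and KCNMB4). An r as high as that of KCNH2 was reached by 0.966% of all tested probe sets. Each within-group relation has only 4 dogs, so none was tested.

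**Figure D5:**
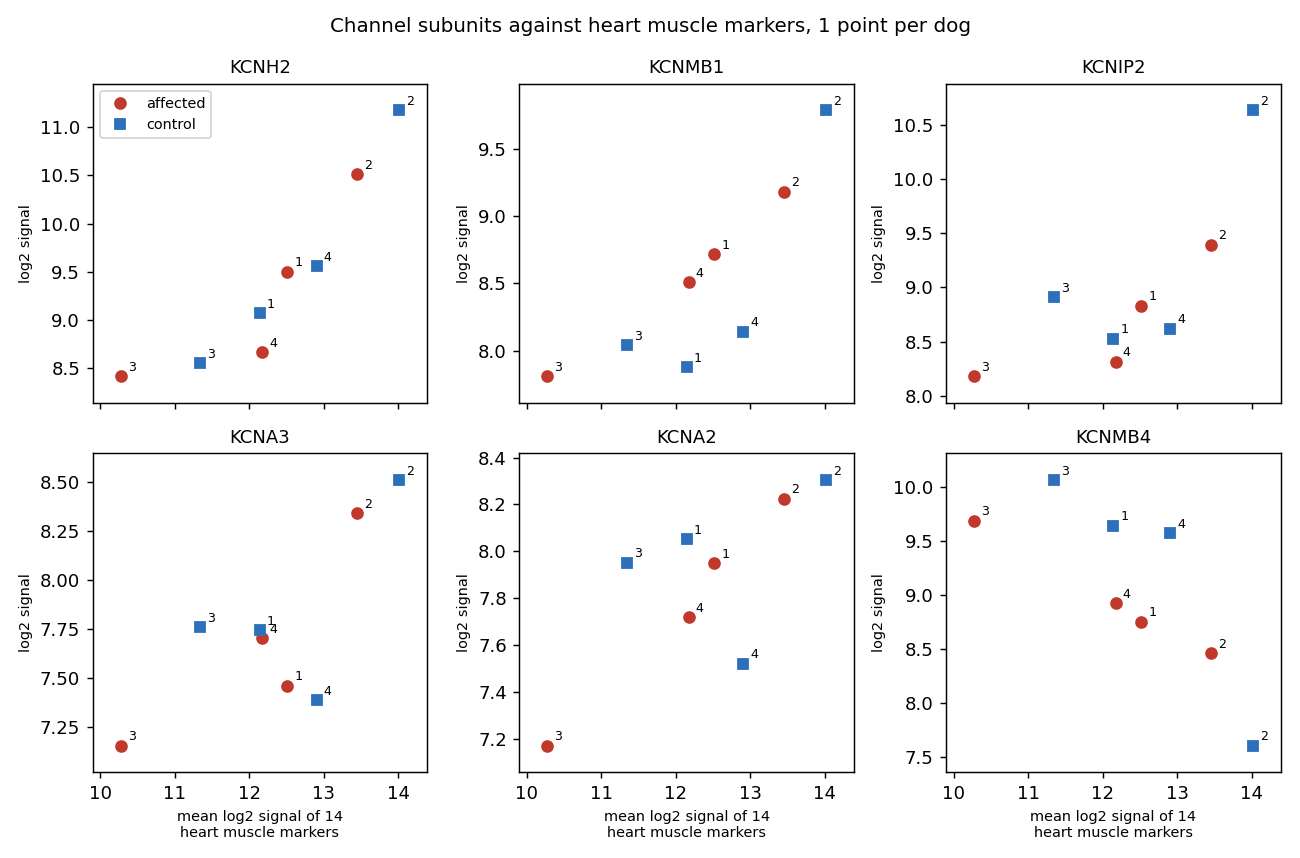
Log2 signal of 6 channel subunit genes (y axes) against the mean log2 signal of 14 heart muscle markers (x axis), 1 point per dog with its number, affected dogs as circles and controls as squares. KCNH2 is lowest in affected 3 at 8.42 and highest in control 2 at 11.18, and KCNMB4 runs in the opposite direction.

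Genes that work beside these channels were read from lists drawn up by function, and 0 genes passed an adjusted p of 0.05 in any list. Of 7 excitation-contraction partners, which release and bind calcium in muscle, 2 had a higher and 5 a lower mean in affected dogs, with a median difference of -0.28. RYR2, the calcium release channel of heart muscle, differed by -0.96 ± 0.62 and FKBP1B, which binds it, by -0.55 ± 0.37. Control 2 weighed on these values. RYR2 read 12.34 in that dog and 9.62 to 9.91 in the other controls, against 8.54 to 10.61 in affected dogs. The mean of the 7 partners was 10.64 in control 2 and 9.11 to 9.31 in the other controls, against 8.62 to 10.01 in affected dogs. Of 8 ion pumps and exchangers 4 were higher and 4 lower, with a median of -0.054, and ATP1B3, a subunit of the sodium pump, differed by 0.65 ± 0.38. Other cation channels were split as 3 higher and 4 lower (median -0.0089), where P2RX4, an ATP-gated channel of macrophages and endothelium, differed by 0.85 ± 0.43. All 6 tested endothelium markers had a higher mean in affected dogs, with a median difference of 1.00. Of these, 4 had an unadjusted p under 0.05 in limma, beside 4.02% of all tested probe sets higher at such a p. At an adjusted p under 0.05 the count was 0. Taken singly, 2 of the 6 (ENG and NOS3) were higher with groups apart, beside 2.35% of all tested probe sets. The mean log2 signal over the 6 was 10.80 to 11.22 in affected dogs and 9.91 to 10.39 in controls, without overlap. None of the 6 was at the floor, and their part in the channel values was not tested. Other anion channels were split as 3 and 3 (median 0.11), and CLIC2 of that list differed by 1.46 ± 0.54 with an unadjusted p of 0.0223 and an adjusted p of 0.577 in limma. Of 10 channel regulators 5 were higher and 5 lower (median -0.039). WNK1, a kinase that controls chloride transport, differed by 1.77 ± 0.65 (unadjusted p = 0.0211 in limma, adjusted p = 0.576).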

How the data were processed

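The deposited values are linear probe set intensities, for which the submitters' processing notes name MAS5; the sources used here give neither its version nor its detection calls. Each array was brought to the same trimmed mean (2% off each end), signals under the pooled 20th percentile were raised to it (34.2), and log2 was taken. Of 23913 rows, 77 were array controls and 10549 had 1 symbol in the platform annotation; only these were named. The gene identifiers of 39 of the 40 genes were found in a RefSeq gene table with the same symbols; the platform annotation names no build, so no coordinates are given.

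Groups were compared with limma 3.58.1 in R 4.3.3 (two-sided; lmFit, then eBayes with the prior variance following intensity) and p-values were adjusted by Benjamini-Hochberg over all 14705 tested probe sets, at a threshold of 0.05. Intervals are 95% and errors are standard errors from that fit. Relations with heart muscle markers were tested by two-sided exact permutation of all 40320 pairings. The test was tried on simulated data. The members and lists were chosen with earlier results of these data known. The naming rule took genes whose groups did not overlap, the 5 smallest p per direction, the 6 brightest and 12 measured genes of known role out of 32; all other tested genes are given too. The alternatives are in the closing section; counting every tested probe set was chosen after seeing the data.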

Additional observations from a re-analysis of the deposited data

Results flagged for a closer look

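In each group of 4 dogs, a value was singled out when its gap to the nearest other dog took up more of the group's range than Dixon's critical value at 95% allows. Among 48 groups (24 genes, affected and control) 5 values met this, where about 1 in 20 groups, or 2.4 of 48, would by chance. Affected 3 read 7.94 for CACNA1C, above 6.92 to 7.07 in the other affected dogs, and 5.10, the floor, for KCNE3, below 8.07 to 8.18. Control 2 read 8.45 for CACNB2 (6.55 to 6.83 in the other controls), 9.02 for CLCN4 (7.80 to 7.99) and 9.79 for KCNMB1 (7.88 to 8.14). Affected 3 also had the lowest heart muscle markers and control 2 the highest; their part in these values was not tested.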

How the results depend on the processing

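No channel gene passed an adjusted p of 0.05 under any of the 23 alternatives, where the smallest adjusted p was 0.234, and the median difference lay between -0.24 with median centring and 0.070 without affected 4. The count at an unadjusted p under 0.05, 0 in the report, was 1 with a stricter filter (CACNA1C), 1 with a replicate block (KCNN2), 2 with the heart muscle covariate (CACNA1C and KCNE2), 1 with probe sets averaged (KCNA5), 1 with every tested probe set counted (KCNE3) and 0 to 4 with a dog left out, where 4.72% to 12.5% of all tested probe sets had such a p. The count with groups apart was 1 with every tested probe set and 0 to 3 with a dog left out, where 6.03% to 13% of all tested probe sets were apart. Beside the other counts above, all features stood at 8.39% (stricter filter), 9.6% (block), 11.3% (covariate), 8.81% (averaged) and, with every probe set counted, 7.83% for p and 4.66% for groups apart. The count that varied with heart muscle markers by Pearson's r after adjustment, 1 in the report, was 0 without the 2 dogs farthest from the median, and 1 with no floor. Of 518 single-gene values 483 kept their sign and 35 reversed, over 13 genes. TRPM3 was at -0.049 with quantile normalization, -0.058 with median centring, -0.073 with array weights and -0.079 with probe sets averaged. KCNS3 was at 0.049 with a floor at the 40th percentile, KCNA3 at 0.056 with array weights, and KCNH2 and KCNJ8 at 0.069 and 0.13 with the heart muscle covariate. With a dog left out the ranges were -0.26 to 0.28 for TRPM3, -0.69 to 0.25 for KCNS3, -0.41 to 0.035 for KCNA3, -0.73 to 0.22 for KCNH2, -0.70 to 0.32 for KCNJ8, -0.11 to 0.53 for KCNMB1, -0.80 to 0.017 for KCNMB4, -0.31 to 0.10 for TRPC4AP, -0.039 to 0.37 for CLCN4, -0.73 to 0.098 for CLCN7, -0.059 to 0.44 for CACNB3, -0.34 to 0.0064 for KCNA2 and -0.61 to 0.092 for KCNJ12. The cause was not tested. The dogs were not treated as paired by replicate number in the main fit. Same-numbered dogs' deviations correlated at -0.12, 0.41, 0.022 and -0.013, and 2 of 8 dogs correlated best with their own number. These values cannot exclude a pairing. Signals near the floor limit KCNE3, KCNN2, KCNJ8, CACNB2, KCNS3, CLCN7, KCNJ12 and KCND3: with the floor at the 40th percentile they stood at 0.78, 0.54, -0.24, -0.23, 0.049, -0.11, -0.089 and 0.085. With no floor KCNE3 stood at 0.12, CACNB2 at -0.82 and KCNS3 at -0.34, and the other genes of this list were unchanged.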
